A study of Mus musculus with 22 samples.

Results

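The comparison concerned the 8 female mice of a series of 22 mice of the strain C57B6/J OlaHsd whose right brain hemisphere was sequenced after their social rank had been read in a tube test, in which cage mates push each other out of a narrow tube. The column names of the female count table sort these 8 samples into 2 sets. In 4 of them the name carries 1 of 2 cage numbers, and these 4 are called the numbered set here. In the other 4 the name carries Gr1 or Gr2, and these are called the Gr set. Each of the 4 cages or groups gave 1 dominant and 1 submissive mouse, so each set held 2 mice of each rank, and rank could be kept as a covariate. The numbered set comprised dominant females 1 and 2 and submissive females 1 and 2, and the Gr set dominant females 3 and 4 and submissive females 3 and 4, where mice 1 came from the first and mice 2 from the second numbered cage, mice 3 from Gr1 and mice 4 from Gr2. The labels give no altered gene and no drug treatment, all mice were young adults housed in groups, and all were killed under isoflurane in the morning a few days after the test. According to the study's methods, new groups were formed from females of intermediate rank, which then went through the tube test once more. Neither the methods nor the labels say whether Gr1 and Gr2 were such groups. The question put to the data was whether the sets differed apart from rank, and whether the difference between ranks was of the same size in both.

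The 2 mice of a cage were cage mates, so the contrast of sets is one of 2 cages against 2 groups. The library numbers in the column names ran from 7 to 10 in the numbered set and from 11 to 14 in the Gr set, so the order of the libraries and the set cannot be told apart. Depth was similar, with 15807010 to 16488762 reads counted per numbered sample and 14967458 to 16462771 per Gr sample. Levels are given as CPM, the reads of a gene scaled to a common library size, after TMM scaling, a correction for differences in composition between libraries. All 8 libraries held Xist at 309 to 396 CPM and no read of Ddx3y, as female labels require, and neuronal markers (Snap25, Syt1 and Rbfox3) summed to 3377 to 3497 CPM in the numbered and 3376 to 3558 CPM in the Gr set. Pituitary markers (Prl, Gh and Pou1f1) summed to at most 0.364 CPM in the numbered set and reached 16.0 CPM in submissive female 3 of the Gr set. Markers of liver did not exceed 1.63 CPM in any sample.

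Immediate-early genes are the genes that neurons transcribe first after synaptic activity or a growth factor signal, without new protein synthesis. Many of them encode transcription factors (Fos, Junb, Egr1, Nr4a1 and Npas4), some encode brakes on signalling (the phosphatase Dusp1 and the antiproliferative protein Btg2), and Arc encodes a protein that moves to active synapses and tunes their receptors. In the brain their level follows recent experience, and they have been used for decades as a trace of which neurons were active. The circadian clock is a loop in which Clock and Arntl switch on the Per and Cry repressors and output factors such as Dbp, Tef and Nr1d2, and Per1 also behaves as an immediate-early gene.

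Of 14865 genes tested with edgeR's quasi-likelihood test, 1 passed an adjusted p of 0.05 (0.00673% of the genes). This was Nr4a1, which was higher in the Gr set. At an unadjusted p under 0.05 there were 824 genes, 437 higher in Gr (2.94%) and 387 lower (2.6%). By DESeq2, 2 genes passed, both lower in Gr (Kcnj2 and the small RNA Scarna2, the latter named after its values were seen), and Nr4a1 did not, at an adjusted p of 0.409. The 4 Gr samples all lay above the 4 numbered samples in 219 genes (1.47%) and all below them in 217 (1.46%). A random split of 8 samples into 4 and 4 would give shares of about this size. Sets that do not overlap are therefore no sign of a set difference by themselves. Since cage mates are not independent, the contrast was also run on counts summed per cage, 2 sums against 2, where edgeR again called 1 gene, Nr4a1, at an adjusted p of 0.0491. With the cage as a random effect (the replicate block, in limma), 2 genes passed, Nr4a1 higher and Kcnj2 lower, both at an adjusted p of 0.0468, against 0 genes in the same limma fit without the block. The correlation of cage mates estimated for that block was negative, at -0.099, which narrows the error of a contrast between cages. The block therefore loosened this test, with 1024 genes at an unadjusted p under 0.05 against 830 without it. On the counts summed per cage Kcnj2 did not pass, at an adjusted p of 0.0805.

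Nr4a1 (ENSMUSG00000023034, chr15:101266846-101274794 on the plus strand of mm10) encodes an orphan nuclear receptor that acts as a transcription factor. Its level was 19.6 and 14.99 CPM in dominant females 1 and 2 and 15.1 and 16.7 CPM in submissive females 1 and 2 of the numbered set. In the Gr set it was 35.0 and 31.6 CPM in dominant females 3 and 4, and 32.6 and 18.8 CPM in submissive females 3 and 4. Thus 3 of the 4 Gr samples lay well above the numbered range and submissive female 4 lay inside it. The mean was 29.5 ± 7.27 CPM against 16.6 ± 2.14 CPM (SD, n = 4 each), a log2 fold change of 0.82 ± 0.12 (SE), or 1.77-fold, at an adjusted p of 0.0430. The call depended on single mice of both sets. It was lost without any 1 of 6 of the 8 mice, at an adjusted p of 0.321 without submissive female 1, 0.152, 0.204 and 0.129 without dominant female 1, 2 and 3 in turn, 0.0676 without submissive female 3 and 0.0631 when dominant female 4 was left out, and it was lost with a robust prior, at 0.723. Without the 2 mice of Gr1 the log2 fold change was 0.59 at an adjusted p of 0.307, and without the 2 mice of Gr2 it was 1.03 at 3.22e-06. In the 14 males Nr4a1 ran from 10.9 to 28.6 CPM with a median of 20.7 CPM. The males stand in a separate table scaled on its own, and their column names begin with another prefix. Male ranges given here are therefore no reference range for the females.

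Arc was measured at 62.3 to 69.8 CPM in the 4 numbered samples, a narrow range. In the Gr set it was 160 CPM in dominant female 3, 110 CPM in submissive female 3, 94.0 CPM in dominant female 4 and 64.2 CPM in submissive female 4. The 2 mice of Gr1 were the highest of all 8 samples, and submissive female 4 again fell among the numbered samples. The log2 fold change was 0.68 ± 0.15 (SE), which did not pass the correction (adjusted p = 0.352). Without Gr2 the gene passed and without Gr1 it did not, at a log2 fold change of 1.03 and 0.26 respectively. Among the 14 males Arc covered 41.7 to 132 CPM, so that only dominant female 3 lay outside the male range.

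Fos followed the same order of samples. Its level was 9.65 to 13.3 CPM in the numbered set, and 27.4, 22.3, 15.03 and 11.1 CPM in dominant female 3, submissive female 3, dominant female 4 and submissive female 4. Dusp1 lay at 9.81 to 14.1 CPM in the numbered set, and at 23.8, 21.4, 17.1 and 13.4 CPM in the same 4 Gr samples. Both genes were therefore highest in the cage mates of Gr1, and in both submissive female 4 was within the numbered range. The log2 fold change was 0.74 ± 0.19 for Fos (adjusted p = 0.540) and 0.65 ± 0.14 for Dusp1 (adjusted p = 0.287). Junb, the partner of Fos in the AP-1 dimer, was 20.1 to 29.3 CPM in the numbered set and 38.0, 33.1, 30.4 and 24.7 CPM in the Gr set in that order, a log2 fold change of 0.40 ± 0.11. Btg2 (0.34 ± 0.15) and the nuclear protein gene Ier2 (0.40 ± 0.17) differed less, and in both the 2 mice of Gr1 were the highest of the 8.

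The immediate-early list held 18 genes, all tested. Nr4a1 was called, and 7 of the 18 were higher in Gr at an unadjusted p under 0.05 (Nr4a1, Arc, Fos, Dusp1, Junb, Btg2 and Ier2), against 2.94% of all genes, with 0 lower. By DESeq2 5 were higher, and with a robust prior 3. None of the 18 had sets that did not overlap. The median log2 fold change of the list was 0.14, against 0.00037 over all genes tested. Leaving out 1 mouse moved this median from 0.042 (dominant female 2) to 0.25 (submissive female 4), with 0.081 when dominant female 3 was left out. In 10 of the 18 the direction turned in at least 1 alternative fit. Without Gr1 the count was 3 higher and 3 lower with a median of 0.0019, and without Gr2 it was 11 higher and 0 lower with a median of 0.35. In the dominant mice alone 10 were higher and 0 lower, and in the submissive mice alone 3 were higher and 2 lower. Other members of the list differed little or overlapped widely. Egr1, a zinc finger transcription factor, was 39.7 to 62.5 CPM in the numbered and 35.1 to 69.5 CPM in the Gr set, a log2 fold change of 0.16 ± 0.12. Npas4, which is induced by neuronal depolarisation, was 11.1 CPM in dominant female 3 but 3.20, 4.91 and 2.77 CPM in the other Gr samples, against 4.30 to 8.86 CPM in the numbered set.

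**Figure D1:**
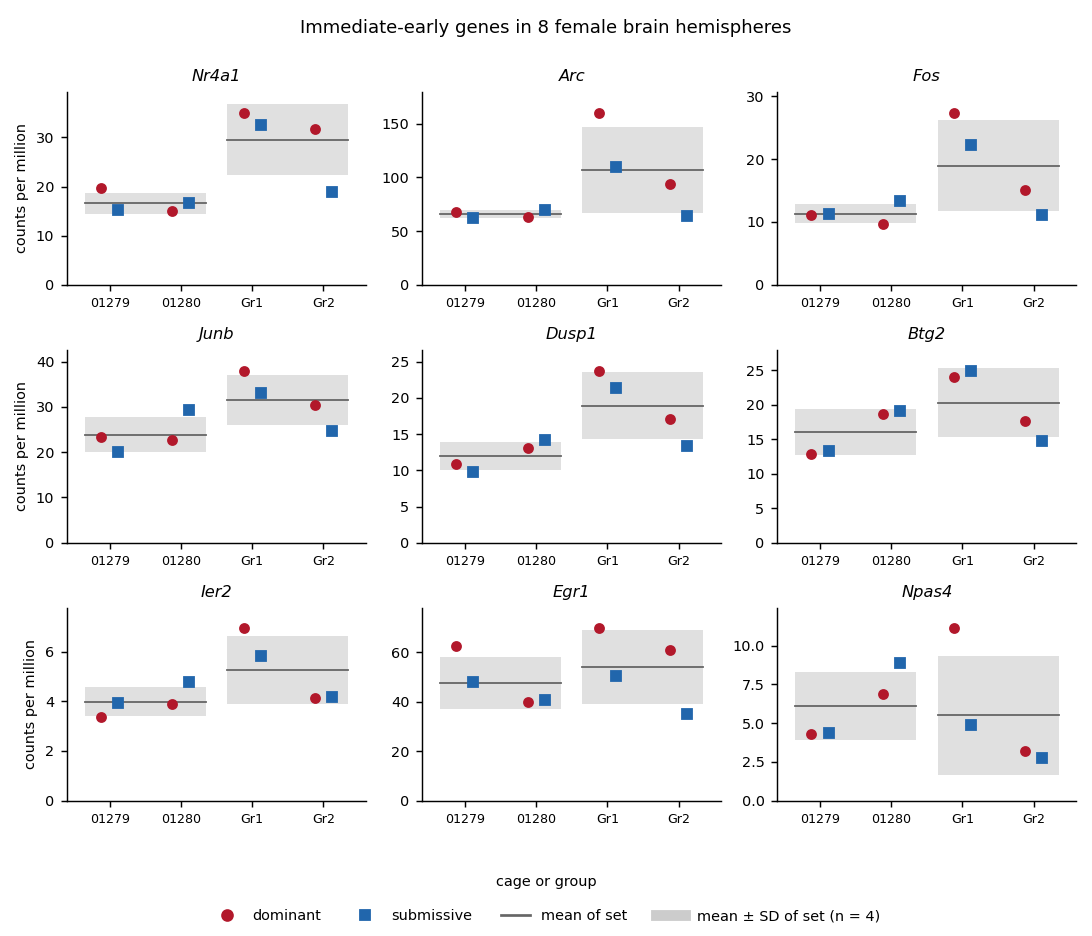
CPM of 9 immediate-early genes in each of the 8 female hemispheres, by cage or group on the x axis, with dominant mice as red circles, submissive mice as blue squares, the line at the mean and the grey band at mean ± SD of each set of 4. Both mice of Gr1 stand above the numbered cages for Nr4a1, Arc, Fos, Dusp1 and Ier2, and the submissive mouse of Gr2 does not.

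The starts of the 7 genes higher in Gr at an unadjusted p under 0.05 were read to describe the letters they hold. RefSeq's promoter windows on GRCm38.p6, taken over the 250 bases before the annotated start, were found for 5 of the 7 genes (Nr4a1, Fos, Dusp1, Btg2 and Junb). Arc and Ier2 have no entry. The core TGACG of the cAMP response element, the DNA word bound by CREB-type factors, was searched on both strands together with the full palindrome TGACGTCA, which contains the core on each strand and so counts as 2 overlapping cores. The core was present in all 5 windows and in 17.8% of the 32851 windows of all genes. Of the other motifs searched, the E-box CACGTG was in the window of Dusp1 alone and in 6.02% of all windows, and the D-box TTATGTAA and the CArG box were in none of the 5, against 0.819% and 1.47% of all windows. Of the 5 clock genes described next, Per1, in both of its windows, and Nfil3 also held the core, and Dbp, Nr1d2 and Tef did not. The 5 genes were chosen for their levels in these samples, and list members that differed little were not searched. The shares over all windows were not matched for base content, so they say nothing on the set difference. The palindrome was in the windows of Dusp1 and Btg2 and in 1.55% of all windows. Nr4a1 held 4 cores, and 4 or more were found in 0.137% of all windows. The stretches that span the cores are printed 5′ to 3′ along the gene, with the cores in capitals, as TGACG or as its reverse complement CGTCA. A match is a description of the letters and no record of binding.
Nr4a1, chr15:101266601-101266822, plus strand: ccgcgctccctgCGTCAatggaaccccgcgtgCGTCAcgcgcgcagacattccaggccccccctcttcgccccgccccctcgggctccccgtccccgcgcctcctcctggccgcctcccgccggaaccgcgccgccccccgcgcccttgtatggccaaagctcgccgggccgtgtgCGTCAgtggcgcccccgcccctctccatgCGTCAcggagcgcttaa
Fos, chr12:85473749-85473840, plus strand: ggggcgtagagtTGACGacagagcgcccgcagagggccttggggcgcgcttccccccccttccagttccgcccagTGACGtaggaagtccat
Dusp1, chr17:26508596-26508675, minus strand: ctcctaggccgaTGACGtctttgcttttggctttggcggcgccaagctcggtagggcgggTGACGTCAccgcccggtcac
Btg2, chr1:134079302-134079333, minus strand: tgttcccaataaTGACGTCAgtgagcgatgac
Junb, chr8:84978838-84978866, minus strand: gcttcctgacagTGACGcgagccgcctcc

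Among 18 clock genes, all tested, 2 were higher in Gr (Per1 and Nfil3) and 3 lower (Dbp, Nr1d2 and Tef) at an unadjusted p under 0.05, against 2.94% higher and 2.6% lower of all genes, and none passed the correction. By DESeq2 1 was higher and 2 lower. Leaving out 1 mouse gave 1 to 3 higher and 2 to 4 lower, with 1 higher when dominant female 1 or 3 or submissive female 2 or 3 was left out. The median of the list was -0.000105 on the log2 scale. Per1, a repressor in the clock loop, was 22.1 to 27.8 CPM in the numbered set and 30.7, 36.2, 27.2 and 27.6 CPM in dominant females 3 and 4 and submissive females 3 and 4, a log2 fold change of 0.32 ± 0.068 (adjusted p = 0.287). The 2 dominant Gr mice lay above all numbered samples, and the 2 submissive Gr mice lay within their range. Dbp, an output factor of the clock, was 46.1 to 52.5 CPM in the numbered set and 36.9, 41.0, 40.5 and 47.2 CPM in the Gr set in the same order (log2 fold change -0.25 ± 0.054, adjusted p = 0.287). Of the 1678 exon bases of Dbp, 539 overlap those of another gene, so part of its reads may be uncertain. Nr1d2, which encodes the repressor REV-ERBβ, was 215 to 228 CPM in the numbered set and 192 to 208 CPM in the Gr set, with no overlap, and a log2 fold change of -0.14 ± 0.034. Tef (-0.070 ± 0.032), a relative of Dbp, and Nfil3 (0.22 ± 0.10), which binds the same sites as Dbp and represses, differed with overlapping sets.

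Ranking by p and taking 5 genes per direction gave 3 whose sets did not overlap. Kcnj2 (chr11:111066164-111076825), which encodes the inward rectifier potassium channel Kir2.1, was 47.2, 55.5, 51.5 and 51.2 CPM in dominant females 1 and 2 and submissive females 1 and 2. In the Gr set it was 43.8, 40.5, 37.2 and 41.2 CPM in dominant females 3 and 4 and submissive females 3 and 4. Every Gr sample was below every numbered sample, the log2 fold change was -0.34 ± 0.056, and the adjusted p was 0.0663. The 14 males, again scaled apart from the females, spanned 39.1 to 49.9 CPM, which takes in parts of both sets.

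Slc33a1, which encodes the acetyl-CoA transporter of the endoplasmic reticulum, showed narrow sets. It was 71.3 to 74.6 CPM in the numbered set and 63.3 to 65.8 CPM in the Gr set, a mean of 73.1 ± 1.39 against 64.7 ± 1.02 CPM (SD, n = 4 each). The log2 fold change was only -0.18 ± 0.037 (adjusted p = 0.287). Zfp189, a zinc finger transcription factor, was 15.7 to 20.05 CPM in the numbered set and 21.96 to 24.05 CPM in the Gr set (0.36 ± 0.076, adjusted p = 0.287).

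Of the remaining genes named by the same order, Pcsk1n, the precursor of the prohormone convertase inhibitor proSAAS, had a log2 fold change of -0.23 ± 0.050, with overlapping sets. Of its 2193 exon bases, 135 overlap those of another gene. The dominant mice were at 68.8 to 86.6 CPM and the submissive mice at 81.9 to 109 CPM, ranges that overlap, but in every cage or group the dominant mouse lay below its cage mate. The rank difference did not pass in either set (adjusted p = 0.220 in Gr and 0.716 in the numbered set). Tfrc, the transferrin receptor that imports iron, was 256 to 276 CPM in the Gr set. In the numbered set it was 320, 307 and 320 CPM in 3 mice and 267 CPM in dominant female 2, so that 1 numbered mouse lay inside the Gr range (-0.19 ± 0.046, adjusted p = 0.422).

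**Figure D2:**
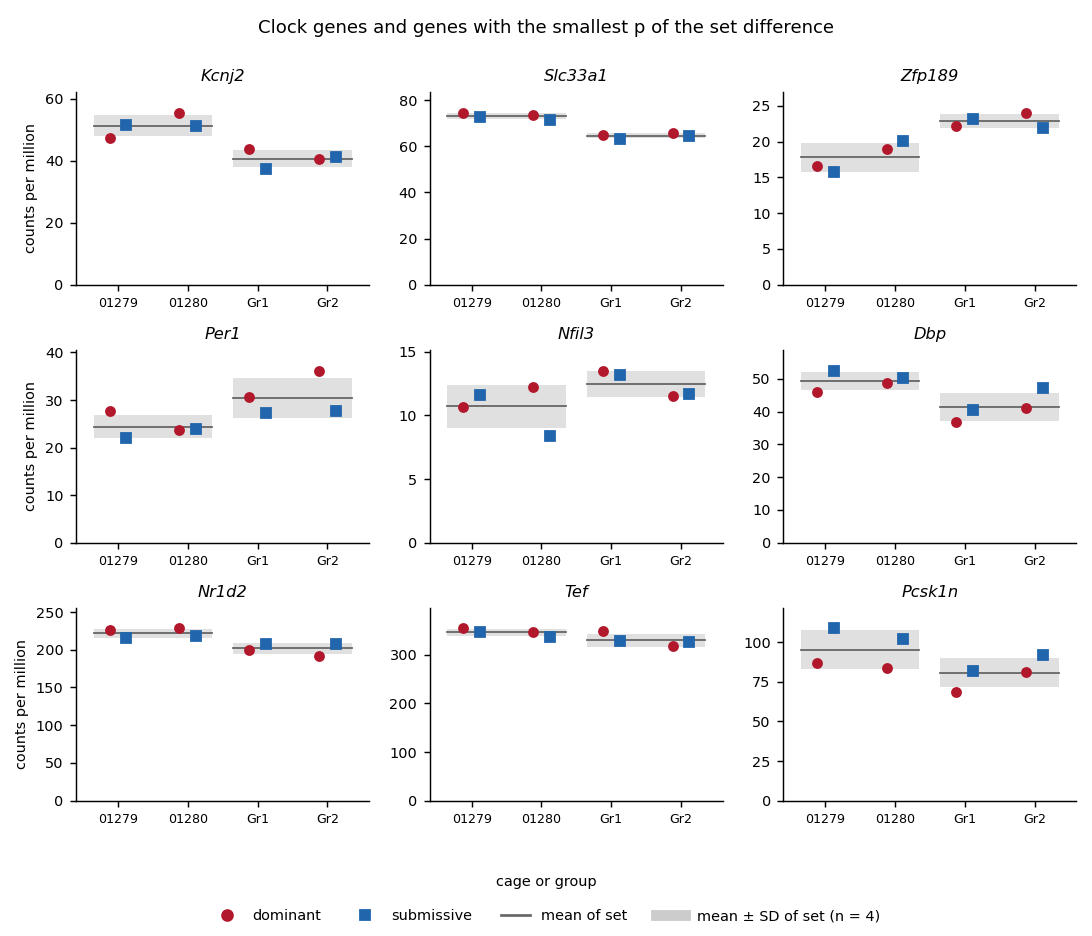
CPM of 5 clock genes and of 4 genes with small p of the set difference, in each of the 8 hemispheres by cage or group, with dominant mice as red circles, submissive mice as blue squares, and the mean ± SD of each set of 4. Kcnj2, Slc33a1 and Nr1d2 are lower and Zfp189 higher in all 4 Gr mice, while the sets of Per1, Dbp and Pcsk1n overlap.

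Replication-dependent histone genes sit in clusters and their transcripts lack a poly(A) tail, so they are read by total RNA libraries such as these. Of 15 listed, 13 were tested, and 6 were lower in Gr at an unadjusted p under 0.05 (Hist1h1c, Hist1h1d, Hist1h1e, Hist1h2be, Hist1h4h and Hist3h2a) with 0 higher. The background of genes lower at that threshold was 2.6%. The median log2 fold change of the list was -0.14, none passed the correction, and without Gr1 the count was 0 with a median of -0.058. It was 3 by DESeq2 and 3 without submissive female 3. The core histone Hist1h2be was 11.7 to 13.9 CPM in the numbered and 10.9 to 11.02 CPM in the Gr set, without overlap (-0.20 ± 0.079). The linker histone Hist1h1d was 19.4 to 23.5 CPM in the numbered set and 14.6, 18.0, 16.8 and 20.8 CPM in dominant females 3 and 4 and submissive females 3 and 4 (-0.29 ± 0.090). The submissive mouse of Gr2 lay inside the numbered range and the other 3 Gr mice lay below it.

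Monoaminergic neurons of the midbrain and hindbrain make serotonin, dopamine or noradrenaline, and their few cell bodies supply the whole brain. Of 15 such genes tested, 5 were lower in Gr at an unadjusted p under 0.05 and 0 were higher, with a median of -0.11, against 2.6% lower of all genes. The median was -0.015 without dominant female 3, -0.038 without dominant female 2, -0.18 when dominant female 4 was left out and -0.032 without Gr1. Without Gr2 it was -0.21. The count of lower genes was 4 without Gr1 and 3 without Gr2. It was 3 without dominant female 2 or submissive female 4, 3 with 1 higher without dominant female 3, and 6 without submissive female 2. The median was -0.20 with 4 lower in the dominant mice alone and 0.021 with 1 lower in the submissive mice alone, and with a robust prior 2 were lower. In bulk tissue fewer cells of a type and less RNA per cell cannot be told apart. Tph2, the enzyme that makes serotonin in the brain, was 7.71, 5.04, 20.6 and 15.1 CPM in dominant females 1 and 2 and submissive females 1 and 2. In dominant females 3 and 4 and submissive females 3 and 4 it was 1.90, 2.61, 17.9 and 5.90 CPM (log2 fold change -0.84 ± 0.25, adjusted p = 0.701). Over 27 alternatives its log2 fold change ran from -1.55 to -0.39, and Tph2 passed in 4 of them. These were the fits with no filter on low counts, of the dominant mice alone, without submissive female 3 and without Gr1. The dominant mouse lay below the submissive mouse in each cage, the lowest values were those of the dominant mice of Gr, and the sets overlapped. The serotonin transporter gene Slc6a4 (-0.64 ± 0.27), the vesicular transporter gene Slc18a2 (-0.30 ± 0.12) and the decarboxylase gene Ddc (-0.29 ± 0.094) were each lowest in dominant female 3. Over 26 alternatives the log2 fold change of Slc6a4 ran from -2.07 to -0.21, and it passed in 1, the dominant mice alone. Htr1a, a serotonin receptor carried also by cortical and hippocampal neurons, was 23.4 to 27.1 CPM in the numbered set and 21.0 to 22.9 CPM in the Gr set, without overlap (-0.18 ± 0.062).

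Glucocorticoid-induced genes report on signalling by the stress hormone corticosterone. Of 16 tested, 3 were higher in Gr (Per1, Sgk1 and Ddit4) and 3 lower (Fkbp5, Gjb6 and Plin4) at an unadjusted p under 0.05, against 2.94% and 2.6% of all genes, so that the list had no common direction (median 0.031). Without the first numbered cage 1 was higher and 5 lower, and without the second 5 were higher and 0 lower. Leaving out 1 mouse gave 2 to 4 higher and 0 (submissive female 2) to 5 (submissive female 1) lower. With a robust prior 2 were higher and 0 lower. Fkbp5, a co-chaperone of the glucocorticoid receptor, was 26.8 to 28.9 CPM in 3 numbered mice and 41.4 CPM in submissive female 2, against 24.0 to 27.8 CPM in Gr. Sgk1, a kinase gene, was highest in submissive female 4 of Gr2, at 104 CPM, followed by submissive female 2 of the numbered set at 80.4 CPM. The set differences of both genes thus leaned on single mice. The log2 fold change was -0.26 ± 0.099 for Fkbp5 and 0.19 ± 0.077 for Sgk1.

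Of 22 myelin and oligodendrocyte genes, 5 were lower in Gr at an unadjusted p under 0.05 and 0 higher (Ugt8a, Mal, Cldn11, Aspa and Gpr17), with log2 fold changes of -0.16 to -0.11 and a list median of -0.048, against 2.6% lower of all genes. The count of lower genes was 9 without submissive female 2, 2 without dominant female 1 and 3 when dominant female 4 was left out, 1 and 8 without the first and the second numbered cage, and 2 with 1 higher without Gr1. Dominant female 3 had the lowest summed level of the Gr set, 5956 CPM against at least 6535 CPM in the other 3, and submissive female 2 was as low in the numbered set, at 5975 CPM against 6707 to 7098 CPM. Ugt8a, which makes the myelin lipid galactosylceramide, was 153 to 175 CPM in the numbered and 138 to 156 CPM in the Gr set (-0.13 ± 0.038). In the dominant mice alone 10 of the 22 were lower, and in the submissive mice alone 0 were lower and 2 higher. Of 17 choroid plexus genes, 3 were higher in Gr (Clic6, Kcne2 and Folr1) and 0 lower, with a median of 0.10, against 2.94% higher of all genes. The count was 1 by DESeq2, 1 without submissive female 2 (median 0.038), 1 without submissive female 3 (median 0.050), and 1 without the second numbered cage. In the dominant mice alone 0 were higher and 2 lower, and in the submissive mice alone 6 were higher and 0 lower. Clic6, a chloride channel family gene, was 20.05 to 24.8 CPM in the numbered set, 21.2 and 22.9 CPM in dominant females 3 and 4, and 29.8 and 29.2 CPM in submissive females 3 and 4 (0.23 ± 0.070), so that only the submissive Gr mice stood out. Of 18 genes of striatal projection neurons 0 were higher and 3 lower, with Tac1 and Pde10a among them and a median of -0.032, against 2.6% lower of all genes. The count was 1 without dominant female 1, dominant female 4, submissive female 2, submissive female 3 or Gr1, and in the dominant mice alone 1 was higher and 0 lower, against 0 higher and 5 lower in the submissive mice alone (median -0.10). Without the first numbered cage 1 was higher and 1 lower.

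Of all 545 list members tested, 2 had sets that did not overlap with Gr higher (0.367%) and 7 with Gr lower (1.28%), against 1.47% and 1.46% of all genes, so that such members were no more frequent in the lists than in the table. They are given here as values. Slc17a6, the vesicular glutamate transporter of subcortical neurons, was 191 to 207 CPM in the numbered and 159 to 188 CPM in the Gr set (-0.13 ± 0.040). Lef1, a Wnt pathway factor of the thalamus, was 5.76 to 7.15 CPM in the numbered and 4.91 to 5.62 CPM in the Gr set (-0.30 ± 0.11). Hyal2, a hyaluronidase gene, also lay lower in all Gr mice, and Rarb, a retinoic acid receptor gene of the striatum, and Errfi1, a feedback inhibitor of the EGF receptor, lay higher. None of these passed the correction. Of 24 long neuronal and synaptic genes, 3 were higher in Gr and 0 lower at an unadjusted p under 0.05, against 2.94% higher of all genes, with the presynaptic scaffold Bsn and the postsynaptic scaffold Shank1 among the higher and a median of 0.041, and by DESeq2 0 were higher. Leaving out 1 mouse moved the count from 1 (dominant female 4) to 7 (submissive female 1), with 6 when submissive female 4 was left out. Nptx2, an activity-regulated pentraxin gene, was 22.5 to 27.5 CPM in the numbered and 26.8 to 32.1 CPM in the Gr set (0.19 ± 0.070). Of 15 interferon-stimulated genes, 15 cold-inducible and heat shock genes, 27 ribosomal protein genes and 19 m6A writer, eraser and reader genes, 0 were higher or lower at an unadjusted p under 0.05, and their medians lay between -0.019 and 0.014. The plot of the lists shows the members and medians side by side.

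**Figure D3:**
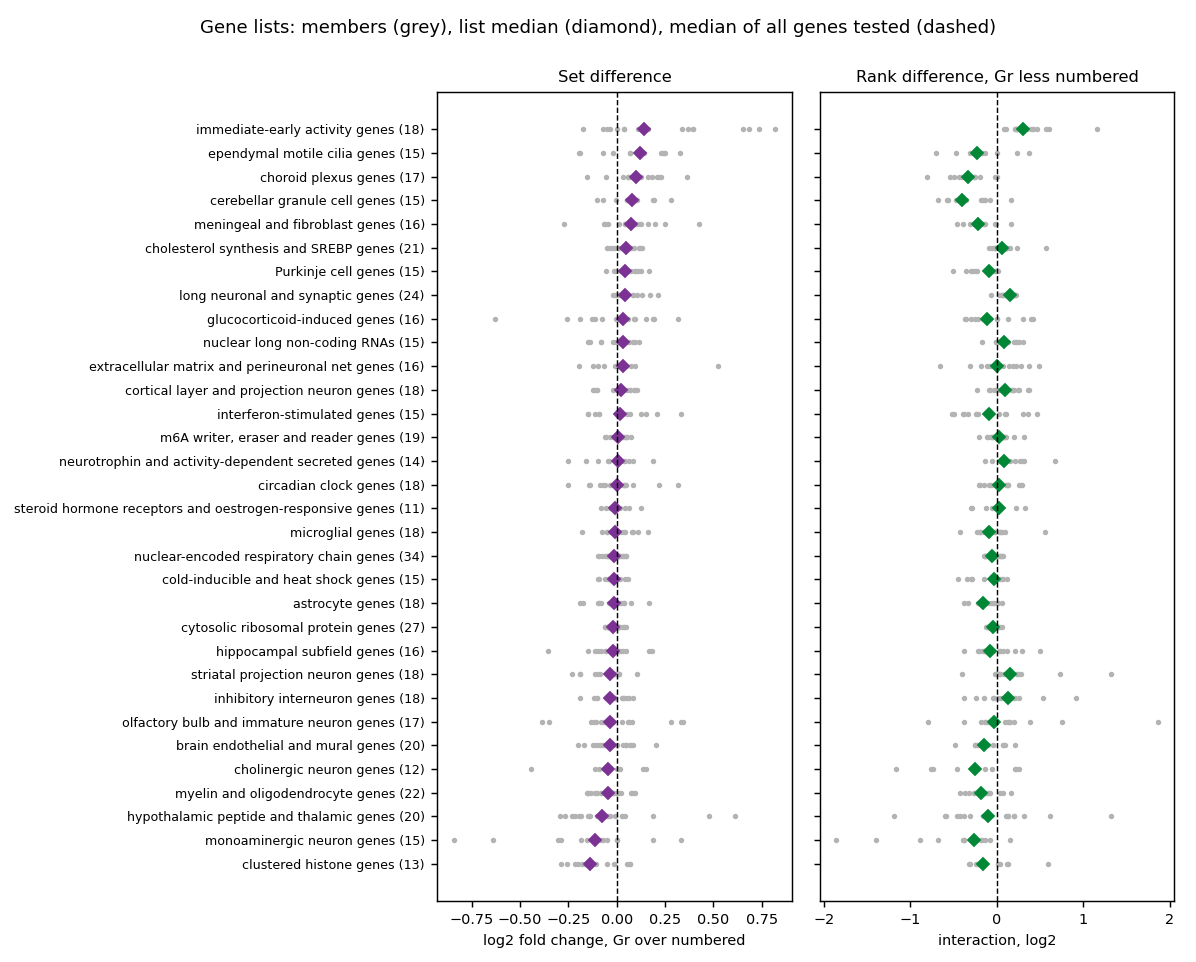
Log2 fold change of Gr over the numbered cages (left) and the interaction, which is the log2 rank difference in Gr less that in the numbered cages (right), for the members of each gene list with 10 or more genes tested (grey points, number tested in brackets), with the list median as a diamond and the median of all genes as a dashed line. The immediate-early list has the highest median of the set difference, 0.14, and the cerebellar granule cell list the lowest of the interaction, -0.41.

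The rank difference was then taken within each set. Dominant and submissive mice of the Gr set differed in 81 genes at an adjusted p under 0.05 (0.545% of those tested), 66 higher and 15 lower in dominant mice. In the numbered set 0 genes passed by edgeR and 0 by DESeq2, with 737 at an unadjusted p under 0.05. The count in Gr was 1 without submissive female 3, 9 without submissive female 4, 34 without dominant female 4 and 128 without dominant female 3, where each of these fits leaves 1 mouse in an arm, which is assumed to vary like the other groups. It was 10 after the trend on exon length had been removed and 123 with the cage as a fixed block, where the numbered set gave 2 genes. With each set fitted alone Gr gave 132 genes and the numbered set 5. The difference between the 2 rank effects, tested as an interaction, passed in 0 genes by edgeR and in 0 by DESeq2, with 934 genes (6.28%) at an unadjusted p under 0.05 by edgeR and a smallest adjusted p of 0.374. The 2 sets are therefore not shown to differ in their rank effect for any single gene, whatever the counts of calls in each.

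Among the genes with the smallest p of the interaction, 2 patterns were seen. In the first, the numbered mice were flat and the Gr mice split by rank. Synpo, which encodes an actin-binding protein of the dendritic spine apparatus, was 71.9 to 76.6 CPM in all 4 numbered mice. In Gr it was 90.5 and 92.3 CPM in the dominant and 71.2 and 64.8 CPM in the submissive mice. The log2 rank difference was 0.43 ± 0.057 in Gr (adjusted p = 0.00580) and 0.0089 ± 0.057 in the numbered set, and the interaction was 0.42 ± 0.080 (adjusted p = 0.374). Akap5, an anchor of kinases at the synapse (interaction 0.29 ± 0.063), Cecr6 (0.41 ± 0.090) and the imprinted long non-coding RNA Meg3 (0.26 ± 0.058) had the same form, and Calb2, the calcium-binding protein calretinin, had it with the opposite sign (-0.38 ± 0.080).

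In the second, the ranks were ordered one way in the numbered cages and the other way in Gr. Klk6, a protease gene of oligodendrocytes, was 15.8 and 15.4 CPM in dominant females 1 and 2 and 11.7 and 10.7 CPM in submissive females 1 and 2. In Gr it was 12.3 and 13.4 CPM in the dominant and 15.5 and 15.9 CPM in the submissive mice. The log2 rank difference was 0.47 ± 0.10 in the numbered set and -0.29 ± 0.10 in Gr, neither past the correction, and the interaction was -0.77 ± 0.15 (adjusted p = 0.374). Slc5a7, the choline transporter of cholinergic neurons (-0.76 ± 0.15), and Prune2 (-0.34 ± 0.066) were ordered in the same way, dominant above submissive in both numbered cages and below in both Gr groups. These genes were chosen by their interaction, so their order is a description.

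Lists of several tissues and cell types leaned to one sign in this contrast. Of 15 cerebellar granule cell genes, 7 had a lower rank difference in Gr at an unadjusted p under 0.05 and 1 a higher one, with a median interaction of -0.41 against -0.0013 over all genes. The same counts were 9 lower and 0 higher of 22 myelin genes (median -0.18), 7 and 0 of 18 astrocyte genes (-0.16) and 5 and 0 of 17 choroid plexus genes (-0.34), while 8 of 24 long neuronal and synaptic genes were higher and 0 lower (0.15). Over all genes tested 3.07% were lower and 3.21% higher. Of other lists, 5 of 18 striatal genes were higher and 0 lower, and 5 of 18 interneuron genes higher and 1 lower. Of 12 cholinergic and 20 endothelial and mural genes, 4 each were lower and 0 higher. Of 27 ribosomal protein genes 0 were lower or higher. The immediate-early list had 0 of 18 in either direction, with a median of 0.30. Its median rank difference was 0.32 in Gr and -0.0063 in the numbered set, and with the cage as a fixed block 7 were higher. By DESeq2 the lower genes were 1 granule cell, 5 myelin, 3 astrocyte and 2 choroid plexus genes, and with a robust prior 1, 7, 5 and 4. Leaving out 1 mouse moved the granule cell median from -0.22 (submissive female 2 or dominant female 4) to -0.61 (dominant female 3). It moved the choroid plexus median from -0.20 (submissive female 2) to -0.47 (submissive female 1). Without the second numbered cage the granule cell median was -0.18. Cbln3, a granule cell protein, was 147, 167, 163 and 118 CPM in dominant females 1 and 2 and submissive females 1 and 2, and 157, 112, 191 and 167 CPM in dominant females 3 and 4 and submissive females 3 and 4. The low values stood in submissive female 2 and dominant female 4, 1 in each set and of opposite rank. Ttr, the transthyretin of the choroid plexus, was 731, 797, 836 and 609 CPM in the numbered mice and 679, 638, 932 and 879 CPM in the Gr mice in the same order, and was again low in submissive female 2. Without that mouse the counts of lower genes were 1 of 15 granule cell, 1 of 17 choroid plexus, 3 of 18 astrocyte and 4 of 22 myelin genes. Without submissive female 3 they were 1, 3, 1 and 6, and without dominant female 4, the other low mouse, 2, 6, 6 and 12. Leaving out the other mice gave 5 to 8 granule cell, 2 to 9 choroid plexus, 2 to 9 astrocyte and 4 to 11 myelin genes, the lowest of the choroid plexus and astrocyte counts without dominant female 2, the lowest myelin count without dominant female 3 or submissive female 4, and the highest choroid plexus count without submissive female 1. The summed granule cell genes ranged from 1115 to 1337 CPM in the numbered and from 1182 to 1428 CPM in the Gr set, and the part of the dissection in these counts was not tested. For the long genes, the count ranged from 3 without dominant female 2 or dominant female 4 to 16 without dominant female 3, and it was 2 without Gr2, 13 without Gr1, 3 after removal of the length trend and 1 with the replicate block and the length trend removed.

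**Figure D4:**
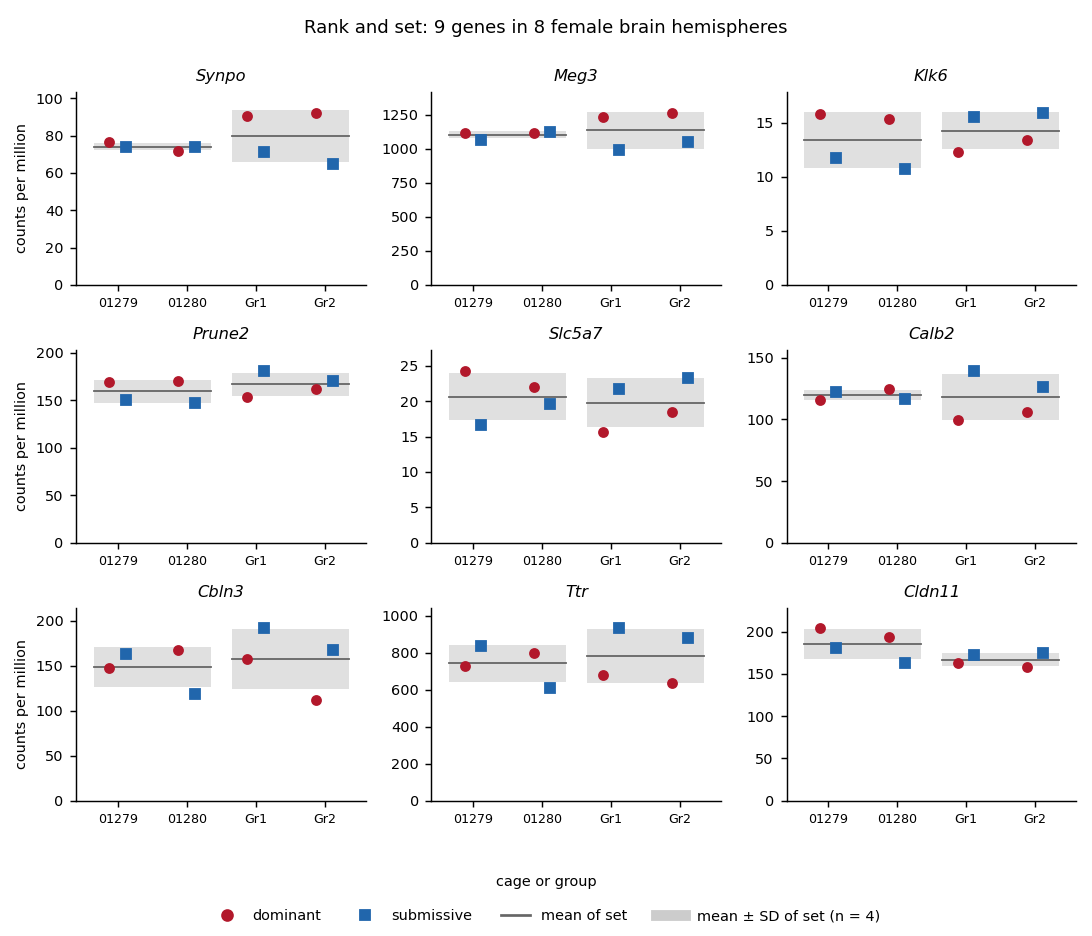
CPM of 9 genes in the 8 hemispheres by cage or group, with dominant mice as red circles, submissive mice as blue squares, and the mean ± SD of each set of 4. Synpo and Meg3 separate the ranks in Gr1 and Gr2 but not in the numbered cages, Klk6, Prune2 and Slc5a7 reverse their order between the sets, and Cbln3 and Ttr are low in the submissive mouse of the second numbered cage.

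Principal component analysis of rlog values of the 500 most variable genes was used to set the share of set beside that of rank. The first component held 36.5% of the variance, of which set explained 10.4% and rank 70.1%. Its strongest weights were on Arc, Tph2 and Egr1. Dominant females 3 and 4 of Gr lay at -1.64 and -1.62, dominant females 1 and 2 at -0.50 and 0.24, and all submissive mice between 0.65 and 1.06, so the distance between ranks was wider in Gr. The second component (25.1% of the variance, of which set explained 8.45%, rank 0.125% and cage, set included, 50.7%) was weighted on the cerebellar genes Car8, Gabra6 and Cbln3 and set submissive female 2 apart at -1.72. Of the third (11.4%) set explained 27.3%, rank 1.41% and cage 48.2%. The shares of set rested on single mice, since leaving out 1 mouse moved them from 0.076% to 31.5% on the first, from 0.10% to 19.6% on the second and from 1.04% to 72.8% on the third component. Exchanging set within rank gave exact permutation p values of 0.278, 0.556 and 0.222 (two-sided, 36 arrangements, the smallest possible being 0.0556), and exchanging whole cages gave 0.333, 0.667 and 0.333 (6 arrangements, smallest possible 0.333). Neither design can reach 0.05.

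**Figure D5:**
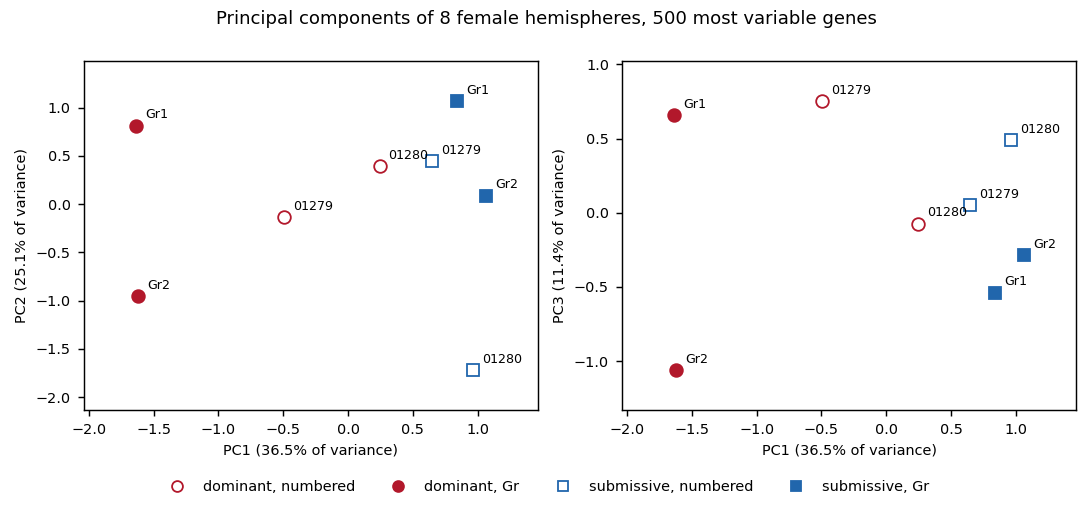
Scores of the 8 hemispheres on the first 3 principal components, as PC2 and PC3 against PC1, with dominant mice as red circles and submissive mice as blue squares, filled for Gr and open for the numbered cages, and the cage or group beside each point. The 2 dominant Gr mice lie farthest left, near -1.6 on PC1, and the submissive mouse of the second numbered cage lies lowest on PC2.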

How the data were processed

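The authors extracted total RNA from right hemispheres, depleted rRNA, sequenced single-end stranded libraries, trimmed reads with cutadapt 1.15, aligned them to mm10 (GRCm38) with STAR 2.6.0a and deposited raw read counts per gene from featureCounts 1.6.2 as 1 table per sex. The strand setting of the counting is not given in the sources used here. Each table held 24421 gene names, of which 27 were dates. The 8 female columns were used, and the males only for their range and in 1 alternative fit of all 22 samples. Genes with too few counts were dropped with filterByExpr (minimum count 10, minimum total 15), leaving 14865. The counts were fitted in edgeR 4.0.16 (R 4.3.3) by quasi-likelihood with TMM scaling, rank and set as terms, or a mean for each of 4 groups for the interaction, with Benjamini-Hochberg adjustment over all genes. DESeq2 1.42.0 and limma 3.58.1 served as alternatives. The fit was also run on simulated counts of independent samples without a cage effect, which cannot show how differences between cages act on it. Named genes were, by rank of p, 5 per direction of the set difference (fewer than 5 being called) and 4 per direction of the interaction, leaving out predicted genes, small RNAs and date names, plus members of gene lists, picked among the members after their values and alternatives had been seen. The comparison and the lists were chosen with earlier results of these data known. Labels do not say that replicates come from separate litters, so p values measure the spread between these mice. Differences between the 2 cages of a set, taken in the dominant and in the submissive mice, were nearly unrelated across genes, which are not independent (r = 0.011 in the numbered and 0.052 in the Gr set), and no library was a copy of another. Results of some genes are not reported here. Promoter windows came from RefSeq on GRCm38.p6.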

Additional observations from a re-analysis of the deposited data

Results flagged for a closer look

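In 273 groups of 4 values (the named genes, the tissue markers and the summed lists in each set), 13 held a sample far from the other 3 by Dixon's criterion, where chance flags about 1 group in 20. The number flagged was thus about what that share gives. A summed list also shares values with its members, so the groups are not independent. Of the 13, 4 were submissive female 2, 3 submissive female 3, 2 dominant female 1, 2 dominant female 3, 1 dominant female 2 and 1 submissive female 1.

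Submissive female 2 of the numbered set had Fkbp5 at 41.4 CPM (others at most 28.9), Sgk1 at 80.4 CPM (others at most 68.8) and Slc17a6 at 207 CPM (others at most 194), and it was low for the myelin gene Mog at 64.5 CPM (others at least 73.7). In the same set dominant female 1 was high for Pde10a at 315 CPM and for the summed m6A genes at 1420 CPM, submissive female 1 was low for Meg3 at 1063 CPM, and dominant female 2 was low for Sh3rf2, a striatal gene, at 6.55 CPM.

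In the Gr set, submissive female 3 stood apart for the pituitary hormones Prl at 11.9 CPM (others at most 0.588) and Gh at 4.12 CPM (others at most 0.196), and for the summed pituitary hormone genes at 29.1 CPM (others at most 9.15). Dominant female 3 was low for Mbp at 1977 CPM (others at least 2236) and for the summed myelin and oligodendrocyte genes at 5956 CPM (others at least 6535).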

How the results depend on the processing

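The number of genes called for the set difference (1) ranged from 0 to 5 when single mice were left out. It was 2 by DESeq2, 2 with the length trend removed, 20 with no filter on low counts, and 0 with a mean count of at least 100, with the GC trend removed, in limma without a block, without the rank term and in 1 fit of all 22 samples. It was 8 in the dominant and 0 in the submissive mice alone, and 0, 3, 1 and 9 without the first numbered cage, the second numbered cage, Gr1 and Gr2, the last 4 fits having been chosen after seeing the data. Nr4a1 kept its direction in all 27 alternatives and passed in 10 of them. Its call held without submissive female 2 or 4 and was lost without any other single mouse (adjusted p 0.0631 to 0.321). With a robust prior the 1 gene called was Kcnj2 instead.

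The interaction (0 genes) gave 0 to 6 genes without single mice, the 6 arising without submissive female 1, 10 without the filter on low counts, and 6 and 3 without the first numbered cage and Gr1. With the cage as a fixed replicate block it gave 0 genes, and 1 (Arc) when the length trend was also removed. The rank difference within Gr (81 genes) gave 1 to 128 genes without single mice, 250 without the filter, 25 at a mean count of at least 100, 124 with the robust prior, 10 and 151 with the length and the GC trend removed, 123 with the replicate block, 132 when Gr was fitted alone, 131 without either numbered cage and 23 without Gr2. Within the numbered cages (0 genes) the counts were 0 to 2, 8 without the filter, 2 with the replicate block, 5 when fitted alone, 3 without either numbered cage and 5 without Gr1 or Gr2. The cage numbers pair the mice as cage mates. With the block as a random effect in limma the correlation of cage mates was estimated at -0.099, which made this test looser than without the block. The set difference gave 2 genes there, of which Kcnj2 was at an adjusted p of 0.0805 on counts summed per cage. In the fits of interaction and rank without 1 mouse or cage, a lone mouse of an arm is assumed to vary like the other groups.

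The direction of Egr1 turned in the submissive mice alone (-0.056) and without the second numbered cage (-0.045) or Gr1 (-0.00833), and it ran from -0.00383 to 0.29 without single mice. That of Npas4 turned in the dominant mice alone (0.35) and without the second numbered cage (0.31) or Gr2 (0.38), and it ran from -0.80 to 0.17 without single mice. That of Cldn11 turned in the submissive mice alone (0.012), and that of Plin4 without the second numbered cage (0.23). The cause of these changes was not tested. The other genes named with a value kept their direction, but this partly follows from how they were chosen, since list members near a difference of 0 were left unnamed after their alternatives had been seen. Of all 545 list members tested, 381 turned in at least 1 alternative of the set difference (10 of the 18 immediate-early genes among them) and 281 in at least 1 of the interaction. Of the 61 members at an unadjusted p under 0.05 for the set difference, 4 turned. With 4 mice per set from 2 cages, a set effect cannot be told apart from differences between single cages.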
